A study of Mus musculus with 45 samples.

Results

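The genes described here are 9 genes of the red cell lineage, chosen by name from the 55367 gene symbols of a raw count table and followed through scaffold, lung, spleen and tumor. They are the adult alpha globin genes Hba-a1 and Hba-a2, the adult beta globin genes Hbb-bs and Hbb-bt, and 5 genes of red cell precursors, namely Alas2, Klf1, Epor, Slc4a1 and Car1. All 9 were in the table under their own symbols and passed the count filter in every tissue.

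Red cells form in the bone marrow of adult mice, and the mouse spleen also keeps a niche in its red pulp where production can expand under stress, a process called extramedullary erythropoiesis. Erythropoietin, made mainly by the kidney, signals through its receptor on committed progenitors, and the factors Gata1 and Klf1 then switch on globin chains, haem synthesis and the proteins of the red cell membrane. Circulating reticulocytes and red cells keep much globin messenger RNA and little of the messages made in nucleated precursors. Blood held in a tissue therefore carries globin counts, whereas Klf1, Epor, Slc4a1 and Car1 mark the nucleated stages more closely.

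The mice were female Balb/c animals that all carried subcutaneous polycaprolactone scaffolds, porous implants placed at 7 to 8 weeks of age, and no genetic change was given for them. Tumor-bearing mice received 2000000 cells of the 67NR, 4T07 or 4T1 line in a mammary fat pad, 2 weeks after the scaffolds were placed. Control mice were healthy animals with scaffolds and no tumor. Tissues were taken at day 14 after inoculation. The 3 cell lines are clonal relatives from a single mouse mammary tumor; as background, 67NR cells form primary tumors without spread, 4T07 cells leave the tumor without forming overt nodules, and 4T1 cells form metastases. Scaffold, lung and spleen each had Control, 67NR, 4T07 and 4T1 groups and tumor had the last 3, which gave 15 groups of 3 libraries, 45 in all, made from polyadenylated RNA with a kit that counts the 3′ ends of transcripts. The labels number each library from 1 to 45 without naming the mouse, so p-values measure the spread between libraries, and which tissues came from the same mouse is not known. Library totals ran from 3491888 to 8175380 counts with a median of 5149589, so that 3 counts, the limit a count of 0 allows, stood for 0.367 to 0.859 counts per 1000000 counts of the library (CPM). Limits of this kind cover counting error only.

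The proximal promoters of 4 of these genes are shown because they stand for the classes that behaved differently, an alpha globin gene that rose in the spleen, a beta globin gene that did not pass the test there, and a transcription factor and a receptor of the precursors. Each is the stretch of 250 bases before the RefSeq transcript start on GRCm38.p6, written 5′ to 3′ along the gene, and capitals mark matches to GATA (the letters AGATAA, or the same with T first, G last or both), a CACCC box (CCNCNCCC), CCAAT or TATAA on either strand.
Hba-a1 (chr11:32283422-32283671, forward strand): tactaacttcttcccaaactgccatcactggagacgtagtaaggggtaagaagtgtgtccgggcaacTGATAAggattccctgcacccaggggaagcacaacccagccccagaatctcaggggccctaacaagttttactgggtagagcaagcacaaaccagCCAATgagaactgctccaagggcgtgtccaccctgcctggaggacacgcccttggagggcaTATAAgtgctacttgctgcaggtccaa
Hbb-bs (chr7:103827929-103828178, reverse strand): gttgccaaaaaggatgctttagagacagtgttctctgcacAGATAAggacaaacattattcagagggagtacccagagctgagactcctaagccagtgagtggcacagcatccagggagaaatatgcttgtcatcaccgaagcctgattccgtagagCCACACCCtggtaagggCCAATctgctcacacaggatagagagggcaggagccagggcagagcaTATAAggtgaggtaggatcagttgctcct
Klf1 (chr8:84901732-84901981, forward strand): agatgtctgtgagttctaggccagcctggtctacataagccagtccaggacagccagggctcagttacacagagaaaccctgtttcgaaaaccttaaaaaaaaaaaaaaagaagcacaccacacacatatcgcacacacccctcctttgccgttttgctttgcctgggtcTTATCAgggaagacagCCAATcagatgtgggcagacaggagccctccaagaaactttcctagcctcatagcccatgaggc
Epor (chr9:21963577-21963826, reverse strand): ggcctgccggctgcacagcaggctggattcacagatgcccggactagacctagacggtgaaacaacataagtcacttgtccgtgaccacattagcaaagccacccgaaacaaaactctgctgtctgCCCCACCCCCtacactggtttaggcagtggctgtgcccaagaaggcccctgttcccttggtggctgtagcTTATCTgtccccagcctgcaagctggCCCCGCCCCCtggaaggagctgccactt
A promoter was found in the RefSeq table for 7 of the 9 genes, the exceptions being Slc4a1 and Car1. GATA letters stood in 6 of these 7, all but Hbb-bt, against 26.6% of 32817 mouse promoters of the same length. The CACCC letters, the kind of box that Klf1 binds, were in Hbb-bs, Hbb-bt, Alas2 and Epor and in 45.9% of all promoters. A match is only a description of these letters, and CCNCNCCC matches can overlap each other. Hba-a1 and Hba-a2 had identical promoters over the 247 bases aligned, 1 mismatch in 429 coding bases and none in the 74 bases after the stop codon. Reads from the 3′ end therefore cannot separate the alpha globin genes reliably, and their ratio stayed between 1.22 and 1.59 in the 45 libraries. Counts out of the 9 genes hold both Hba-a1 and Hba-a2, so calls of the pair are not separate results. Hbb-bs and Hbb-bt differed by 1 base in 444 of coding sequence but were only 72.1% identical over 129 bases after the stop codon. BALB/c mice carry another beta globin haplotype than the reference strain, so counts under both beta symbols depend on how those reads aligned.

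Some libraries stood apart before any comparison of erythroid genes. The 3 libraries labelled 4T07 lung carried markers of spleen. Tlx1, a homeobox factor of spleen stroma, was at 14.6, 13.8 and 11.1 CPM in them, against 0.324 to 0.541 CPM in Control lungs and 11.9 to 16.7 CPM in 4T07 spleens. Summed over 4 spleen stroma markers (Tlx1, Nkx2-3, Nkx2-5 and Madcam1, a list chosen after values were seen), the 4T07 lungs held 23.4 to 38.8 CPM, the Control lungs 0.324 to 1.62, the 67NR lungs 1.30 to 4.41 and the 4T1 lungs 0.847 to 2.09. The 6 lung epithelial markers summed to 5935 to 14756 CPM in the 4T07 lungs and to 35532 to 37744 CPM in Control lungs, so the libraries held lung RNA as well. In the scaffold and tumor sets, 1 library of each 4T07 group (scaffold library 22, tumor library 31) had far more erythroid RNA than its group. Counts of called genes that rest on libraries 22 and 31 are given with and without them, and for lung the comparisons of the other groups were also fitted without the 4T07 lungs. In bulk tissue, more cells of a type and more RNA per cell cannot be told apart.

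Klf1, the transcription factor that drives adult globin and red cell membrane genes, was higher in the spleens of every tumor-bearing group. It was at 95.3, 78.7 and 127 CPM in Control spleens, 292, 193 and 261 CPM with 67NR tumors, 312, 300.1 and 345 CPM with 4T07 tumors and 311, 354 and 275 CPM with 4T1 tumors. All 9 spleens from tumor-bearing mice lay above the highest Control. The log2 fold change against Control was 1.22 ± 0.20 (SE) with 67NR (adjusted p = 0.00914), 1.85 ± 0.20 with 4T07 (adjusted p = 7.34e-06) and 1.90 ± 0.20 with 4T1 (adjusted p = 4.23e-06), by the edgeR quasi-likelihood test adjusted over all genes tested. These comparisons share the 3 Control spleens. A gene was called where the adjusted p was below 0.10, or below 0.05 in tumor, and the fold change exceeded 2.

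Slc4a1, the band 3 anion exchanger of the red cell membrane, was called with 4T07 and with 4T1. Its levels were 209.9, 264 and 339.6 CPM in Control spleens, 695, 447 and 364 CPM with 67NR, 651, 942 and 884 CPM with 4T07 and 827, 968 and 841 CPM with 4T1. The lowest 67NR spleen was just above the highest Control, and the 4T07 and 4T1 spleens were all well above it. The log2 fold change was 1.79 ± 0.25 with 4T07 (adjusted p = 7.03e-05) and 1.96 ± 0.25 with 4T1 (adjusted p = 2.60e-05), whereas with 67NR it was 0.80 (adjusted p = 0.0831), a 1.74-fold difference below the fold threshold.

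Epor, the erythropoietin receptor, was called with 4T07 and with 4T1, with a wide spread between libraries. It was at 16.5, 17.1 and 13.6 CPM in Control spleens, 53.4, 18.6 and 20.2 CPM with 67NR, 51.5, 28.8 and 16.3 CPM with 4T07 and 60.6, 72.7 and 48.7 CPM with 4T1. The 4T1 spleens lay wholly above the Controls and overlapped the highest 67NR and 4T07 spleens, while 1 of the 4T07 spleens lay within their range and 1 of the 67NR spleens was far above the other 2. Epor was called with 4T1 (2.19 ± 0.38, adjusted p = 0.000431) and with 4T07 (1.20 ± 0.38, adjusted p = 0.0293). Without 4T07 library 28, the highest of that group, the 4T07 value was 0.75 (adjusted p = 0.179).

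Alas2, the enzyme that starts haem synthesis in red cell precursors, was at 40.0, 14.8 and 13.4 CPM in Control spleens and at 44.3, 42.9 and 86.6 CPM with 4T1. The 67NR spleens held 15.1, 13.8 and 17.5 CPM and the 4T07 spleens 46.3, 29.2 and 16.6 CPM. Every 4T1 spleen was above the Controls, but 1 Control spleen, library 7, came close to the lowest of them, and the other groups overlapped the Controls. Alas2 was called with 4T1 (1.60 ± 0.40, adjusted p = 0.00653) and not with 4T07 (0.59, adjusted p = 0.306). Without Control library 7 the 4T07 value was 1.31 (adjusted p = 0.0171) and would be called.

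Car1, a carbonic anhydrase abundant in erythroid progenitors and red cells, rose by less than the fold threshold. It was at 138, 112 and 166 CPM in Control spleens, 262, 188 and 217 CPM with 67NR, 218.2, 179.8 and 250.008 CPM with 4T07 and 258, 215 and 210.4 CPM with 4T1. No tumor-bearing spleen overlapped the Controls. The fold was 1.75 with 4T07 (adjusted p = 0.00487) and 1.96 with 4T1 (adjusted p = 0.00113), and 67NR gave 0.58 on the log2 scale (adjusted p = 0.103).

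Of the globin genes in the spleen, the alpha pair rose and the beta pair did not pass the test. Hba-a1 was at 17897, 15401 and 17406 CPM in Control spleens, 24398, 23906 and 23946 CPM with 67NR, 34795, 42183 and 51203 CPM with 4T07 and 35481, 36205 and 33264 CPM with 4T1. The groups formed 3 separate steps, Control, then 67NR, then 4T07 with 4T1. The log2 fold change was 1.52 ± 0.23 with 4T07 (adjusted p = 0.000172) and 1.30 ± 0.23 with 4T1 (adjusted p = 0.00052), and with 67NR 0.41 (adjusted p = 0.376) after library scaling. Hba-a2 gave 1.44 ± 0.23 with 4T07 (adjusted p = 0.000216) and 1.17 ± 0.23 with 4T1 (adjusted p = 0.00103). Hbb-bs was at 42577, 32638 and 28919 CPM in Control spleens, 35005, 31152 and 35407 CPM with 67NR, 38483, 44671 and 42881 CPM with 4T07 and 44685, 48948 and 50990 CPM with 4T1. Only the 4T1 spleens lay above all the Controls, with a fold of 1.66 (adjusted p = 0.0328), under the threshold. Hbb-bt stayed between 20686 and 27755 CPM in the 12 spleens, and its values were 0.05 with 4T07 (adjusted p = 0.896) and 0.28 with 4T1 (adjusted p = 0.365) on the log2 scale.

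Counted together, 1 of the 9 genes was called higher in 67NR spleens (Klf1), where 2.26% of all genes tested were called and 1.29% were higher. With 4T07 5 of 9 were called higher, where 18.6% of genes were called and 8.26% were higher. With 4T1 6 of 9 were called higher, where 19.9% were called and 9.84% were higher. Between tumor-bearing groups, Alas2, Hba-a1 and Hba-a2 were higher in 4T07 than in 67NR spleens (3 of 9, 14.7% of genes called and 6.50% higher), by 1.25, 1.10 and 1.04 on the log2 scale. Leaving out 4T07 library 30 reduced Hba-a1 to 0.95 and Hba-a2 to 0.90, below the fold threshold, and Alas2 lost its call without library 17 or 28. Alas2, Epor and Slc4a1 were higher in 4T1 than in 67NR spleens (3 of 9, 20.7% called and 10.3% higher), by 2.27, 1.31 and 1.15, and Slc4a1 lost its call without library 18 (0.96). Between 4T1 and 4T07 spleens 0 of the 9 were called by edgeR and 0 by DESeq2, where 2.33% of all genes were called. There 2 of the 9 had an unadjusted p under 0.05 by edgeR, as did 3485 of 21128 genes tested. The 2 were Alas2 at 1.02 (adjusted p = 0.199) and Epor at 1.00 (adjusted p = 0.176).

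**Figure D1:**
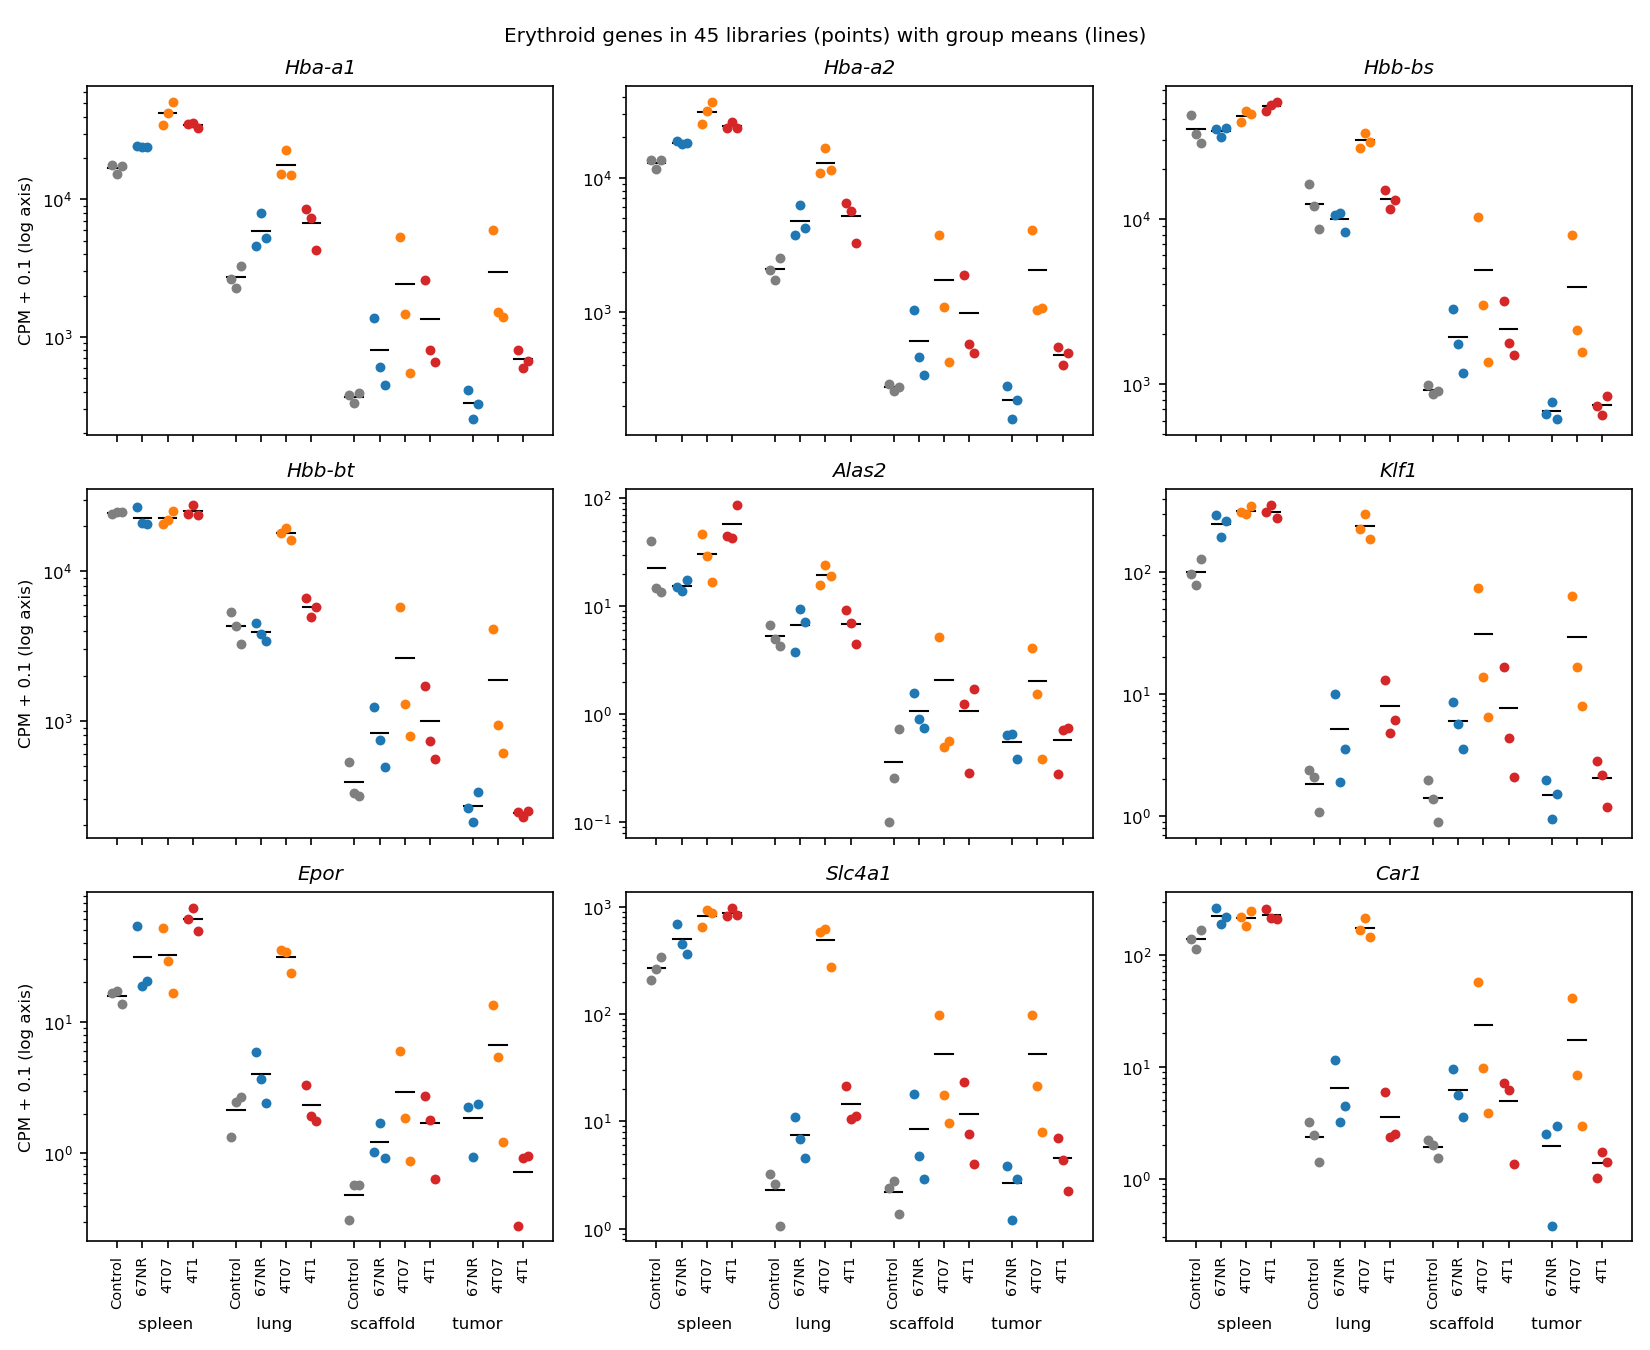
Level of each of the 9 genes in each library, as CPM plus 0.1 on a log axis, by tissue and group; points are libraries and short lines are group means. Klf1 lies above the Control range in all 9 spleens of tumor-bearing mice and rises in the 4T07 lungs from 0.971 to 2.27 CPM in Control lungs to 187 to 298 CPM.

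The wider red cell programme of the spleen was read from lists of genes by role. Of 11 erythroid transcription factors, 4 were higher with 67NR, 8 with 4T07 and 8 with 4T1, with median log2 fold changes of 0.86, 1.20 and 1.25. With 4T1 the changes included Gfi1b (2.57 ± 0.32), Nfe2 (1.99 ± 0.22), which megakaryocytes also use, and Gata1 (1.55 ± 0.17), the central factor of the lineage. Bcl11a, Ldb1 and Lmo2 were the 3 that were not called with 4T1. Of 12 haem synthesis genes, 4, 9 and 11 were higher in the same order of groups, among them with 4T1 Alas1 (2.77 ± 0.26), the form of the first enzyme that most cells use, Cpox (1.97) and the mitochondrial carrier Slc25a38 (1.94). None of the genes in either list was lower. The median over all genes tested lay between -0.0965 and -0.0018 in the 3 comparisons. Of all genes tested, 1.29%, 8.26% and 9.84% were called higher in the same order of groups.

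Membrane and cytoskeleton genes were the longest list. Of 17 tested, 8 were higher with 67NR, 11 with 4T07 and 15 with 4T1, with medians of 0.97, 1.09 and 1.51. Ermap, a blood group glycoprotein, changed by 2.13 ± 0.24 with 4T1, and Kel, the Kell blood group protease, by 1.84. Of 4 genes of erythroid iron uptake, 1, 2 and 4 were higher, with Steap3, the reductase of the transferrin cycle, at 1.99 and Tfr2, a partner of the erythropoietin receptor, at 1.76 with 4T1. Of 13 late enzymes and chaperones tested, 1, 5 and 9 were higher, with Trim58, which acts in enucleation, at 2.30 with 4T1. Among 4 other globin genes tested, Hbq1b was the one called, with 4T07 and with 4T1 (2.25 ± 0.30). The embryonic genes were close to absent, with at most 1 count of Hbb-bh1 and 7 counts of Hbb-y in any library. Of 9 stress signals and their targets tested, 2 were higher with 4T1, Socs3 (2.80 ± 0.27), a feedback inhibitor induced by many cytokines, and the survival gene Bcl2l1 (1.21). Of all genes, 9.84% were higher with 4T1 and 19.9% were called in either direction. Epas1, a hypoxia factor strong in endothelium, was lower with 4T1 (-1.28) and with 4T07 (-1.26), and Epo itself had 0 counts in all spleen and lung libraries, against a limit of 3 counts.

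Other blood lineages moved in the same spleens. The 8 immature neutrophil markers summed to 59.1 to 133 CPM in Control spleens, 124 to 144 with 67NR, 6696 to 8692 with 4T07 and 2326 to 7299 with 4T1, and all 8 were called higher with 4T07 and with 4T1. Of 10 megakaryocyte and platelet markers, 0 were called with 67NR, 9 were higher with 4T07 and 8 with 4T1, for example Pf4 at 2.05 with 4T1. B cell markers were lower in 0, 4 and 5 of 7, among them Ms4a1 at -1.97 with 4T1. Over all genes, 2.26%, 18.6% and 19.9% were called in either direction with 67NR, 4T07 and 4T1. The part of these lineages in the erythroid differences was not tested. In 67NR spleens, where 2.26% of all genes were called, none of the B cell, neutrophil or megakaryocyte markers was called. Klf1, Nfe2 and other erythroid genes were called there. Calls set side by side do not test whether the lists differed.

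Globin set against precursor genes gives a measure that does not depend on the total of each library. The 5 precursor genes summed to 5.09, 5.75 and 7.78 CPM per 1000 CPM of globin in Control spleens, 12.6, 9.17 and 8.95 with 67NR, 10.8, 10.6 and 9.69 with 4T07 and 11.8, 11.9 and 11.1 with 4T1. The Controls lay below all 9 spleens from tumor-bearing mice, and the 3 tumor-bearing groups overlapped or lay close together. The log2 ratio to Control was 0.73 with 67NR, 0.76 with 4T07 and 0.92 with 4T1. Globin as a share of all counts was 9.83%, 8.46% and 8.47% in Control spleens, 10.5%, 9.38% and 9.83% with 67NR, 11.9%, 14.0% and 15.6% with 4T07 and 12.8%, 13.9% and 13.1% with 4T1. The 67NR spleens thus overlapped the Controls in globin share but not in precursor genes per globin. The alpha to beta ratio of counts was 0.470, 0.471 and 0.573 in Control spleens and 1.01, 1.10 and 1.29 in 4T07 spleens, with 67NR (0.695 to 0.798) and 4T1 (0.756 to 0.859) between them. Being ratios over genes chosen with results known, these are given without a test.

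In the lung, Control libraries held globin and little Klf1, Slc4a1 or Car1 message. Control lungs had 2.62%, 2.02% and 1.77% of their counts in globin and 0.626, 0.697 and 0.566 CPM of precursor genes per 1000 CPM of globin. Between Control spleen and Control lung, Hbb-bs differed 2.84-fold and Hba-a1 6.20-fold, while Klf1 differed 57.6-fold, Car1 61.5-fold and Slc4a1 123-fold. The other 2 precursor genes differed less, Alas2 by 4.34-fold and Epor by 7.66-fold, close to the globin genes.

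The 4T1 lungs, whose spleen stroma markers overlapped those of Control lungs, showed small rises in part of the set. Klf1 was at 2.27, 1.98 and 0.971 CPM in Control lungs and at 12.9, 4.66 and 6.00 CPM with 4T1, and Slc4a1 at 3.14, 2.52 and 0.971 CPM against 21.2, 10.4 and 11.2 CPM. Neither gene overlapped between these groups. 4T1 library 37, the highest for both genes, was also the highest 4T1 lung for the stroma markers Tlx1 and Nkx2-3, at 6 counts each. Madcam1 had 0 counts in it. The part of spleen markers in these values was not tested. The log2 fold change was 2.17 ± 0.52 for Klf1 (adjusted p = 0.0123) and 2.71 ± 0.45 for Slc4a1 (adjusted p = 0.000487), and Klf1 fell short without 4T1 library 37 (1.62, adjusted p = 0.1001). Hba-a1 was at 2623, 2265 and 3294 CPM in Control lungs and at 8578, 7387 and 4313 CPM with 4T1, again without overlap (1.32 ± 0.26, adjusted p = 0.00225), and Hba-a2 gave 1.31 ± 0.25 (adjusted p = 0.0019). Epor (0.12, adjusted p = 0.912), Car1 (0.62, adjusted p = 0.524), Hbb-bs (0.10, adjusted p = 0.841) and Hbb-bt (0.44, adjusted p = 0.186) did not pass. In all 4 of 9 genes were called higher, where 4.61% of genes tested were called and 3.56% were higher. Klf1 in 4T1 lungs was thus far below its level of 275 to 354 CPM in 4T1 spleens.

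Over all genes tested in 4T1 lungs, 4.61% were called and 3.56% were higher. Other erythroid genes in 4T1 lungs were called in 11 of 17 membrane genes, 3 of 11 transcription factors, 2 of 12 haem synthesis genes and 3 of 13 late genes. They included Rhd, a blood group protein, at 1.68 CPM in Control and 9.61 CPM in 4T1 lungs on average (2.52), and Nfe2 (3.04 ± 0.27), which megakaryocytes also use. The Nfe2 excess over Control lungs was 23.6% of the 4T07 spleen level. For Gata1 it was 2.38%, for Gfi1b 0.890% and for Foxo3 24.4%. Gata1 was at 0.162 to 0.523 CPM in Control lungs and 1.50 to 3.86 CPM in 4T1 lungs, low enough that its fold is uncertain. Of 8 immature neutrophil markers 7 were called higher, their sums being 91.9 to 135 CPM in Control and 434 to 1227 CPM in 4T1 lungs, and 4 of 10 megakaryocyte markers were higher. Tlx1 was at 0.966, 0.706 and 0.600 CPM in 4T1 lungs, above the Control range, and was not called (0.70, adjusted p = 0.544). The part of other cells in these differences was not tested.

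In 67NR lungs 4 of 9 genes were called higher, where 4.25% of genes were called and 2.52% were higher. Hba-a1 was at 4574, 8025 and 5237 CPM and was called at 1.03 ± 0.25 (adjusted p = 0.0167), Hba-a2 at 1.08 ± 0.25 (adjusted p = 0.0109), Slc4a1 at 1.61 ± 0.49 (adjusted p = 0.0470) and Car1 at 1.32 ± 0.46 (adjusted p = 0.0841). All 4 calls were lost without Control library 5, and Car1 was lost whichever library of these groups was left out. Klf1 was at 9.96, 1.79 and 3.47 CPM, with 1 library above the others, and was not called (1.38, adjusted p = 0.146). That library, 13, was also the highest 67NR lung for Tlx1 (9 counts), Nkx2-3 (9 counts) and Madcam1 (5 counts). The part of these markers was not tested. Slc4a1 was the only gene of the 9 called between 4T1 and 67NR lungs (1.09, adjusted p = 0.0755; 5.03% of genes called and 3.23% higher), and it was lost without library 14, 15 or 37. Fitted without the 4T07 lungs, the same 4 genes were called in 67NR and the same 4 in 4T1 lungs against Control.

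In the 4T07 lungs all 9 genes were called higher, where 29.0% of genes were called and 15.3% were higher. Klf1 was at 226, 298 and 187 CPM, against 300.1 to 345 CPM in 4T07 spleens, and Slc4a1 at 584, 616 and 276 CPM. The log2 fold change against Control lungs was 7.86 ± 0.42 for Slc4a1 (adjusted p = 1.32e-11), 7.15 ± 0.44 for Klf1 (adjusted p = 7.79e-11), 6.35 ± 0.38 for Car1, 3.95 ± 0.32 for Epor, 2.77 ± 0.27 for Hba-a1, 2.11 ± 0.20 for Hbb-bt, 1.96 ± 0.31 for Alas2 and 1.34 ± 0.21 for Hbb-bs. The ratio of precursor genes to globin was 14.4, 12.9 and 9.06 CPM per 1000 CPM, against 1.43, 0.887 and 0.971 in 4T1 lungs and 1.78, 0.851 and 1.02 in 67NR lungs. By this measure 2 of the 4T07 lungs were above all 12 spleens and 1 was within their range, and all 3 were above the other lungs. All 9 genes were also called higher in 4T07 than in 67NR lungs (29.7% called, 14.4% higher) and lower in 4T1 than in 4T07 lungs (23.5% called, 11.9% lower).

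**Figure D2:**
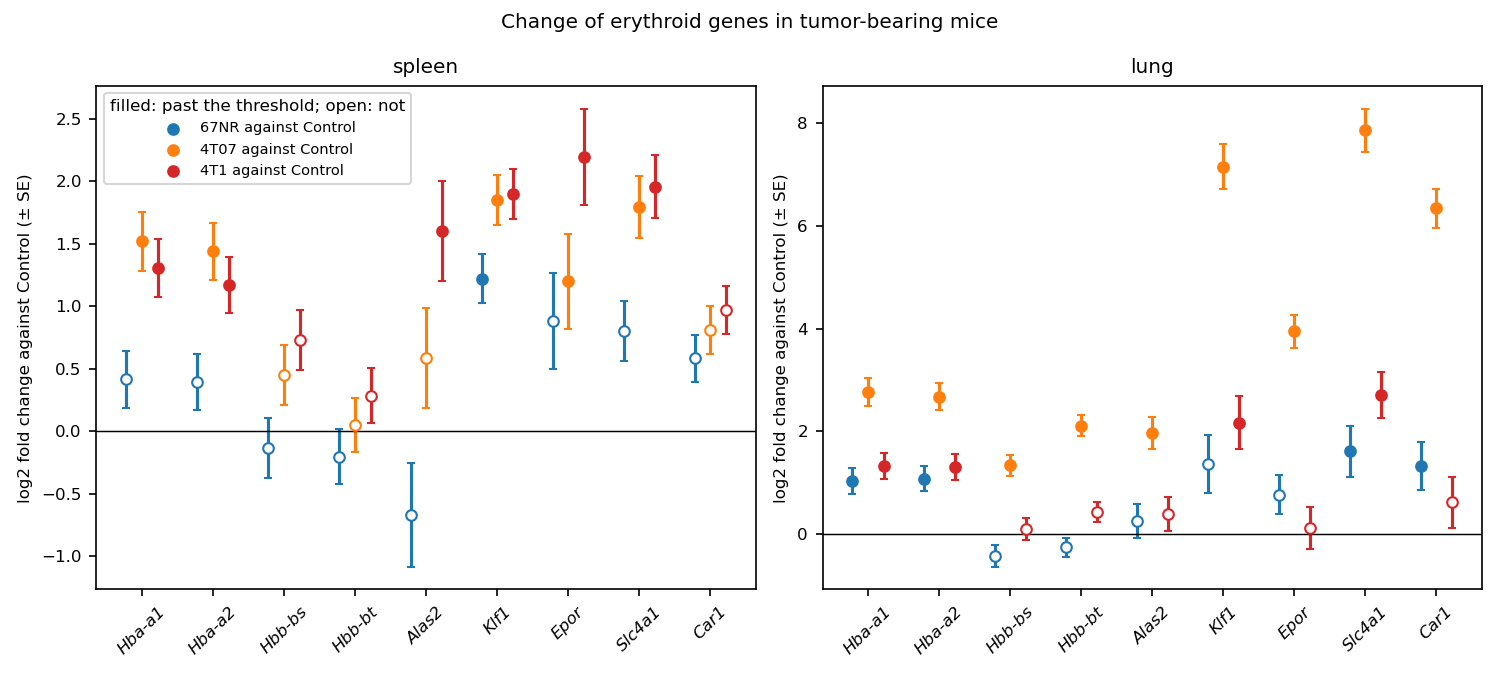
Log2 fold change against Control of the 9 genes in spleen and in lung for 67NR, 4T07 and 4T1, with standard errors; filled points passed the threshold and open points did not. In the 4T07 lungs every point is filled, from 1.34 for Hbb-bs to 7.86 for Slc4a1, whereas in spleen the largest value is 2.19 for Epor with 4T1.

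These are the lungs that carried spleen markers, and the markers rose with the erythroid genes. In each gene the excess over the Control lung mean was set against the mean of the 4T07 spleens. For the 9 erythroid genes it was 34.9% to 89.1% of the spleen level, with a median of 59.3%. The spleen stroma markers gave 51.2% to 84.9% (3 genes, median 71.3%), megakaryocyte markers 53.0% to 102% (10 genes, median 63.5%), B cell markers 1.97% to 102% (7 genes, median 49.8%), red pulp macrophage markers 5.00% to 110% (7 genes, median 59.3%) and T cell markers 27.4% to 53.9% (7 genes, median 34.5%). Sftpc, the surfactant protein of alveolar cells, was at 2855, 1798 and 3620 CPM in 4T07 lungs against 11741 to 13286 CPM in Control lungs, and the 6 lung epithelial markers were at 13.0% to 56.2% of Control, with a median of 38.5%. For the 4T1 lungs the erythroid excess was 0.567% to 9.86% of the 4T07 spleen level. The part of the spleen markers in the 4T07 lung values was not tested, and since all 3 libraries carried them there is no 4T07 lung value without them.

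**Figure D3:**
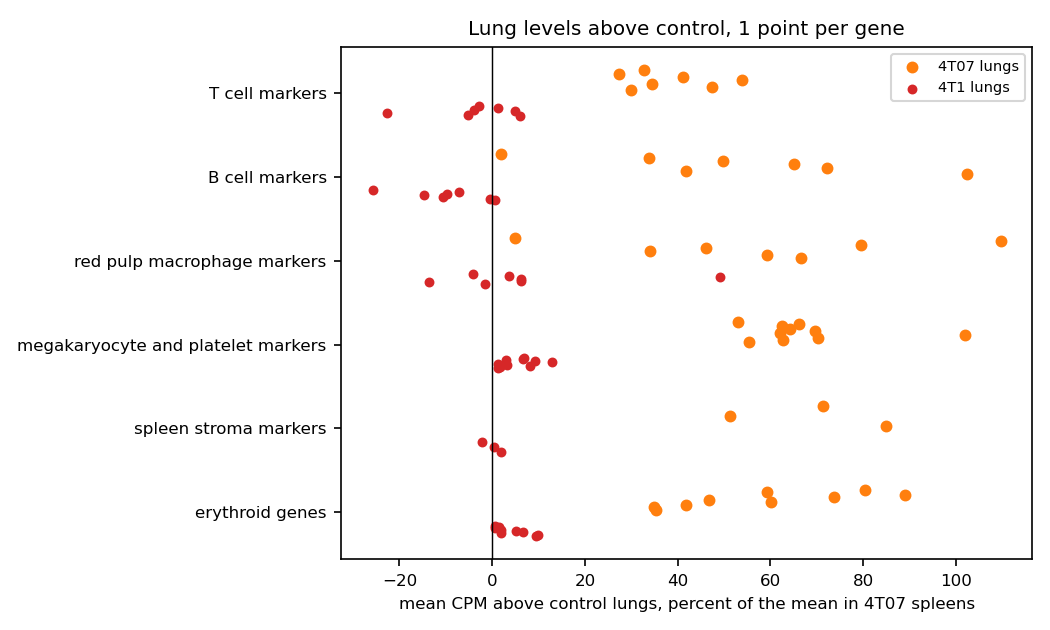
Mean CPM above Control lungs as a percentage of the mean in 4T07 spleens, for the genes of 6 lists in 4T07 lungs (orange) and 4T1 lungs (red), 1 point per gene. In the 4T07 lungs the erythroid genes, with a median of 59.3%, overlap the range of the markers of spleen stroma, megakaryocytes and red pulp.

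The ratio of Klf1 to Tlx1 counts, an erythroid gene over a stroma gene, gives another view. Pooled over the 3 libraries of a group, it was 2.87 in Control spleens (95% exact binomial interval 2.59 to 3.18), 4.90 with 67NR (4.51 to 5.33), 21.5 with 4T07 (18.7 to 24.9) and 18.4 with 4T1 (16.0 to 21.2). In the 4T07 lungs it was 18.0 (15.6 to 21.0), from 3374 and 187 counts, which overlaps the interval of the 4T07 spleens. In the other lungs the Tlx1 counts were few, and the ratio was 3.75 in Control (1.68 to 9.47), 4.35 with 67NR (2.65 to 7.47) and 10.2 with 4T1 (5.99 to 18.7). These intervals cover counting error and not the spread between mice. Between spleen groups the ratio moved with both genes. Tlx1 was at 33.0 to 39.0 CPM in Control spleens and 45.5 to 55.8 CPM with 67NR. It was lower with 4T07 (11.9 to 16.7 CPM) and with 4T1 (11.0 to 24.2 CPM).

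**Figure D4:**
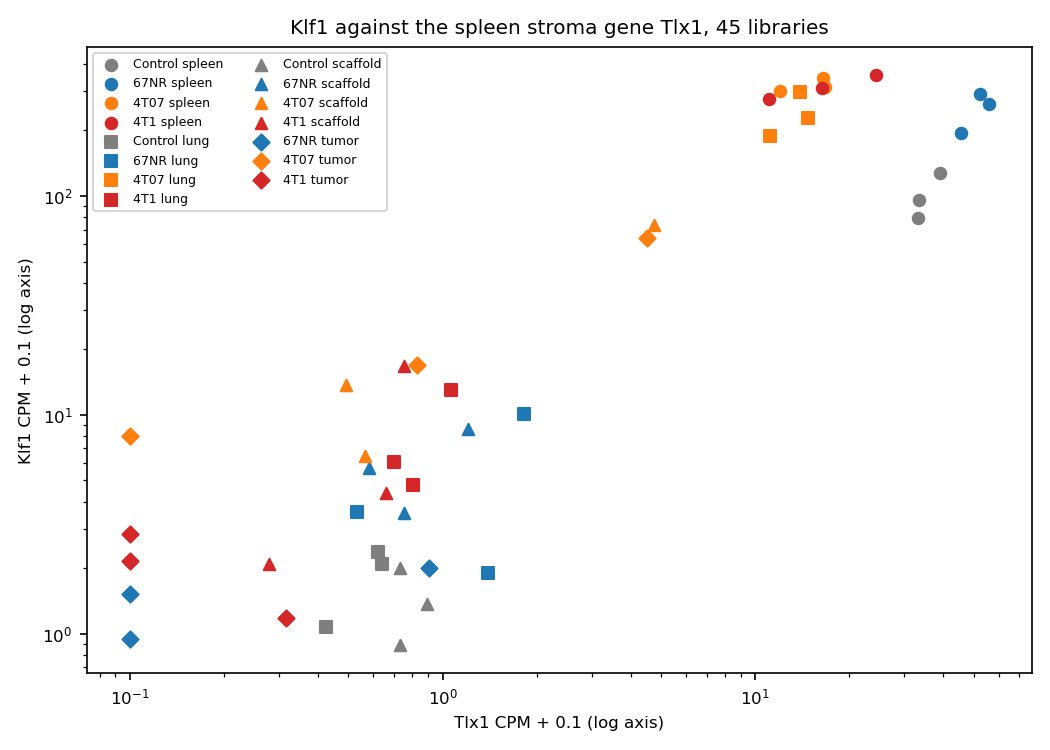
Klf1 against Tlx1, each as CPM plus 0.1 on log axes, 1 point for each of the 45 libraries. The 4T07 lungs, at 11.1 to 14.6 CPM of Tlx1, lie beside the 4T07 and 4T1 spleens, and the other lungs lie at 1.72 CPM of Tlx1 or less.

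Whether a tumor changed a gene by different amounts in spleen and lung was tested with an interaction term over the 24 libraries of these tissues. For 4T07 8 of 9 genes differed, where 25.3% of genes tested did, all with the smaller change in the spleen. The difference of log2 fold changes, spleen minus lung, ran from -5.94 for Slc4a1 (adjusted p = 1.08e-09) to -0.77 for Hbb-bs (adjusted p = 0.0837), with Alas2 at -1.26 (adjusted p = 0.122) the exception. These values include the 4T07 lungs, which carried spleen markers. The 4 stroma genes differed the same way, and the part of the spleen markers in these values was not tested. For 4T1 1 of 9 differed, where 20.1% of genes did: Epor rose more in the spleen than in the lung, by 2.07 ± 0.65 (adjusted p = 0.0315), a call lost without Control lung library 6 (1.89, adjusted p = 0.102). In 4T1 mice 9 of 12 haem synthesis genes and 3 of 4 iron uptake genes also rose more in spleen than in lung, with median differences of 1.06 and 1.77 against -0.155 over all genes. For 67NR 0 of 9 differed by edgeR (0.0730% of genes did), 1 had an unadjusted p under 0.05 and DESeq2 called 0.

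In the scaffold, the implanted biomaterial and the tissue grown into it, erythroid message was low and uneven between libraries. Klf1 was at 1.89, 1.27 and 0.787 CPM in Control scaffolds, 8.50, 5.62 and 3.44 CPM with 67NR, 73.3, 13.6 and 6.37 CPM with 4T07 and 16.5, 4.29 and 1.98 CPM with 4T1. Every tumor-bearing scaffold was above the highest Control, and library 22 was above all others. Hba-a1 was at 381, 334 and 393 CPM in Control scaffolds and at 5324, 1460 and 545 CPM with 4T07. With 4T07 8 of 9 genes were called higher, where 7.44% of genes were called and 3.85% were higher, with the largest values for Klf1 (4.44 ± 0.90, adjusted p = 0.00512), Slc4a1 (4.18 ± 0.92) and Car1 (3.56 ± 0.82). Alas2 was not (2.69, adjusted p = 0.1025). Without library 22, in which Klf1 was 7.35 times the mean of the other 2, 5 of 9 stayed called, with Klf1 at 2.82, Slc4a1 at 2.57 and Car1 at 1.75, and Epor (1.48, adjusted p = 0.244), Hba-a1 (1.33, adjusted p = 0.130) and Hba-a2 (1.34, adjusted p = 0.119) were not. In that library Tlx1 was at 4.65 CPM and the Klf1 to Tlx1 ratio 15.8 (11.4 to 22.5). Of the wider lists, with library 22 included, 14 of 17 membrane genes, 7 of 11 transcription factors and 5 of 12 haem synthesis genes were higher in 4T07 scaffolds. So were 7 of 10 megakaryocyte and 8 of 8 immature neutrophil markers, and the part of those cells was not tested.

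The other scaffold comparisons gave few calls. Against 67NR the 4T07 scaffolds were called for Klf1 (2.34, adjusted p = 0.0587) and Slc4a1 (2.25, adjusted p = 0.0810), where 5.85% of genes were called and 2.82% were higher, and both were lost without library 22 (0.72 and 0.65). Against Control 0 of 9 were called with 67NR, where 0% of genes were called, and 0 with 4T1, where 0.0226% were. By DESeq2 both counts were 0 as well. With 67NR 1 of the 9 had an unadjusted p under 0.05 by edgeR, as did 626 of 22156 genes tested. With 4T1 7 of the 9 did, as did 2682 of 22156 genes. Without the filter on low counts 5 of 9 were called with 67NR and 7 with 4T1, so these counts rest on the filter. Between 4T1 and 67NR 0 were called (0.0226% of genes) and DESeq2 called 0. Of the 9, 0 had an unadjusted p under 0.05 there, where 2234 of 22156 genes did. Between 4T1 and 4T07 0 were called (1.00% of genes) and DESeq2 called 0. Of the 9, 5 had an unadjusted p under 0.05 there, where 3338 of 22156 genes did.

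Primary tumors had no tumor-free group, so they were compared with 67NR. Klf1 was at 1.88, 0.839 and 1.41 CPM in 67NR, 63.8, 16.7 and 7.90 CPM in 4T07 and 2.74, 2.05 and 1.08 CPM in 4T1 tumors. The 4T07 tumors did not overlap either group, and library 31 stood 5.19 times above the mean of the other 2. Hba-a1 was at 411, 253 and 325 CPM in 67NR, 6041, 1510 and 1402 CPM in 4T07 and 809, 591 and 671 CPM in 4T1 tumors. In 4T07 tumors 7 of 9 genes were called higher than in 67NR, where 28.9% of genes were called and 17.1% were higher, with Klf1 at 4.15 ± 0.69 (adjusted p = 0.000234), Slc4a1 at 3.78 ± 0.76 and Hba-a2 at 2.97 ± 0.42. Epor (1.67, adjusted p = 0.056) and Alas2 (1.80, adjusted p = 0.1004) were not called. Without library 31 6 of 9 were called, with smaller values such as Klf1 at 2.86, Slc4a1 at 2.23 and Hba-a2 at 1.97, and Car1 was not (1.34, adjusted p = 0.106). In the same tumors, with library 31 included, 11 of 17 membrane genes and 9 of 11 erythroid transcription factors were higher, with 6 of 9 megakaryocyte and 8 of 8 immature neutrophil markers. Genes of the first 2 lists were also called in 4T1 against 67NR tumors. There Bcl11a (2.70), Ldb1 (2.14), Myb (1.61) and Dmtn (3.55) were higher, and Rhd (-2.50) and Aqp1 (-2.33) were lower. Whether these lists followed red cells in tumors was not tested. Between 4T1 and 4T07 tumors 8 of 9 were lower in 4T1, by -2.04 to -3.82 (8.61% of genes called, 4.79% lower), Alas2 being the exception. Without library 31 7 of 9 were lower, from Hba-a1 at -1.02 to Klf1 at -2.58, and Epor was not called (-2.36, adjusted p = 0.0576). Between 4T1 and 67NR tumors 0 of 9 were called by edgeR or DESeq2, where 20.7% of genes were called. There 2 of the 9 had an unadjusted p under 0.05 by edgeR, as did 8481 of 20508 genes tested. The Klf1 to Tlx1 ratio in 4T07 tumors was 16.8 (11.3 to 26.1) and in 4T07 scaffolds 16.5 (12.1 to 23.0), both from few Tlx1 counts, 26 and 43. Library 31 held 22 of the former and library 22 held 38 of the latter, and without them the ratios were 30.0 (11.4 to 112) and 22.0 (9.15 to 69.1).

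**Figure D5:**
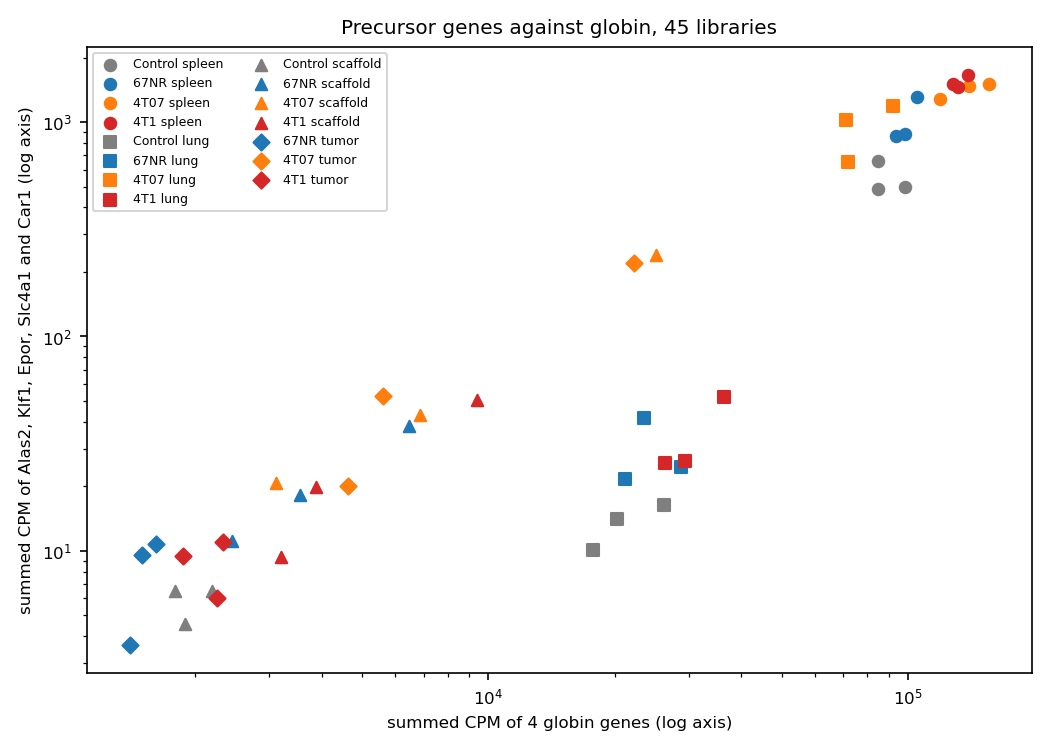
Summed CPM of Alas2, Klf1, Epor, Slc4a1 and Car1 against the summed CPM of the 4 globin genes, on log axes, for the 45 libraries. Control, 67NR and 4T1 lungs have less precursor message for their globin than the other tissues, with 0.566 to 1.78 CPM of precursor genes per 1000 CPM of globin. The 4T07 lungs, with 9.06 to 14.4, lie near the spleens.

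Across the 15 groups all 9 genes had their highest mean in a spleen group, 6 of them in 4T1 spleens and Hba-a1, Hba-a2 and Klf1 in 4T07 spleens. The ratio of highest to lowest group mean was 421 for Slc4a1, 243 for Klf1, 221 for Alas2, 178 for Car1 and 157 for Epor, against 139 for Hba-a2, 130 for Hba-a1, 105 for Hbb-bt and 70.7 for Hbb-bs. For Klf1 the order began with 4T07 spleens at 319 CPM, 4T1 spleens at 313, 67NR spleens at 249 and 4T07 lungs at 237, each overlapping its neighbour, and went on to Control spleens at 100.2 and 4T07 scaffolds at 31.1, which no neighbour above overlapped. Of the 14 steps between neighbouring groups, 9 (Hba-a2) to 13 (Slc4a1 and Car1) had overlapping libraries.

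Within the 12 spleens Hba-a1 varied with Hba-a2 (Pearson r = 0.996), with Slc4a1 (r = 0.902) and with Klf1 (r = 0.883), and not with Hbb-bt (r = -0.0498). Alas2, counted with the precursor genes, varied most with Hbb-bs (r = 0.828). Its r was 0.636 with Epor, 0.390 with Slc4a1, 0.325 with Klf1 and 0.184 with Car1. The genes most like the precursor genes over these spleens, among 11253, were Rrm2 (r = 0.986), a ribonucleotide reductase subunit of dividing cells, Btnl10, Eif2ak1, the haem-regulated kinase of erythroid translation, Asf1b, Mfsd2b, Zwilch, Espl1, Tlnrd1, Cdc6 and Slc43a3, the last with r = 0.975. In the 12 lungs the genes most like globin, among 12083, were Slc25a37 (r = 0.986), the mitochondrial iron importer mitoferrin, E2f2, Zbed4, Tent5c and Ctse (r = 0.982). These correlations run over libraries that share 4 group means and carry no test. Those in lung included the 4T07 lungs with their spleen markers and were not computed without them.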

How the data were processed

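RNA from scaffold, lung, spleen and tumor was sequenced as 45 libraries with the Lexogen QuantSeq 3′ kit with unique molecular identifiers, and the authors deposited raw counts per gene symbol. The submitters' processing notes name Trim Galore 0.5.0, STAR 2.6.0 and featureCounts. The genome build, the annotation and whether reads were collapsed by identifier are not given in the sources used here, nor is how reads mapping to several genes were treated, which bears on the globin pairs. The table held 55487 lines, of which 120 repeated a symbol, and none of the 9 genes was on a repeated line. Groups came from the titles of the samples. Of 45 pairs of libraries of a group, none held identical counts.

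CPM values were computed from these counts and the total of each library. The libraries of a tissue were modelled together, after dropping genes with 10 or fewer counts in that tissue, by the edgeR 4.0.16 quasi-likelihood F test in R 4.3.3 with TMM scaling and Benjamini-Hochberg adjustment over 20508 to 22156 genes. The interaction used the 24 spleen and lung libraries and 24645 genes. DESeq2 1.42.0 was an alternative. Both tests were checked on simulated data. A standard error is the log2 fold change divided by the square root of F. From each gene list up to 3 genes were named, those called with the largest absolute change of 4T1 against Control and a mean of at least 5 CPM, and a gene is also named where its role or exception is described. Likeness was Pearson's r of log2(CPM + 1) with the mean z-score of the set over the 12 libraries of a tissue, with 10 genes named for the precursor genes and 5 for globin. Alternatives were other scaling, filters and samples, globin left out of library sizes, paralogs summed and each library left out in turn. Fits without the 4T07 lungs were added after seeing the data. The 9 genes and the lists were chosen with earlier results of these data known, so no count over them is independent evidence.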

Additional observations from a re-analysis of the deposited data

Results flagged for a closer look

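The effect of a tumor on a gene was compared between spleen and lung by an edgeR interaction term over 24 libraries, and 9 differences passed an adjusted p of 0.10. In 8 of them the change in 4T07 mice was smaller in spleen than in lung: the difference of log2 fold changes was -5.94 for Slc4a1, -5.41 for Car1, -5.18 for Klf1, -2.62 for Epor, -1.94 for Hbb-bt, -1.14 for Hba-a1, -1.12 for Hba-a2 and -0.77 for Hbb-bs. The 4T07 lungs held 11.1 to 14.6 CPM of the spleen stroma gene Tlx1, and its part in these values was not tested. For Hbb-bs the difference no longer passed without Control lung library 5 or 6, Control spleen library 7, 4T07 lung library 26 or 4T07 spleen library 28 or 30. The other difference was Epor in 4T1 mice, larger in spleen by 2.07. Mean Klf1 was 319 CPM in 4T07 spleens, 237 CPM in 4T07 lungs, 100.2 CPM in Control spleens and 1.74 CPM in Control lungs.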

How the results depend on the processing

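No direction of a called gene changed under any alternative run. Requiring at least 10 counts in every library removed low precursor genes from the test and left 2 of the 9 genes called in lung with 67NR, 5 with 4T07, 5 for 4T07 against 67NR, 2 with 4T1, 0 for 4T1 against 67NR and 5 for 4T1 against 4T07. The same filter left 4 in scaffold with 4T07, 1 for 4T07 against 67NR, and in tumor 4 for 4T07 against 67NR and 4 for 4T1 against 4T07. With no filter, scaffold gave 5 with 67NR, 7 with 4T1, 8 for 4T07 against 67NR and 5 for 4T1 against 4T07, tumor gave 1 for 4T1 against 67NR and the 4T1 difference between spleen and lung gave 2; the cause was not tested. DESeq2 gave 0 in lung for 4T1 against 67NR, 1 in scaffold for 4T07 against 67NR and 2 for the 4T1 difference between spleen and lung. With only Klf1 and Epor over globin the spleen ratio with 67NR was 1.11 in place of 0.73 on the log2 scale. DESeq2 also lost Car1 in 67NR lungs (adjusted p = 0.137).

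Leaving out 1 library in turn gave 1 to 4 calls in spleen for 4T07 against 67NR, 0 to 2 for 4T1 against 4T07, 0 to 3 in lung with 67NR, 0 to 2 for 4T1 against 67NR, 5 to 9 in scaffold with 4T07, 0 to 8 for 4T07 against 67NR, 0 to 1 for 4T1 against 4T07 and 1 to 3 for the 4T1 difference between spleen and lung. For the 9 genes, libraries behind lost calls are named beside several results. For genes of the wider lists they are not named. The comparison of 4T1 with 4T07 spleens reached 2 calls without 4T07 library 28. Over all genes, no filter raised the calls in scaffold from 0 to 42 with 67NR, from 5 to 323 with 4T1, from 5 to 202 for 4T1 against 67NR and from 222 to 699 for 4T1 against 4T07, and in spleen from 478 to 762 with 67NR and from 493 to 767 for 4T1 against 4T07. For the 67NR difference between spleen and lung it gave 521 and DESeq2 445 in place of 18, and DESeq2 gave 64 and 48 in scaffold with 4T1 against Control and 67NR. The stricter filter tested at most 12271 genes in a tissue and called fewer, for example 2087 in place of 4200 in 4T1 spleens and 3281 in place of 6372 in 4T07 lungs.

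No paired analysis was possible because the labels number each library once, so the groups share no replicate number, and no label links the tissues of a mouse. At these depths a gene below 0.367 to 0.859 CPM could not be told from absent, which limits Alas2 (0, 1 and 4 counts) and Epor (1, 3 and 3 counts) in Control scaffolds.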
